A study of Mus musculus with 109 samples.

Results

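Whole retinas of wild-type C57BL/6J mice that were injected intravitreally with IL1A+TNF were compared with retinas injected with IL1A alone, 2 days after injection. The members are the day 2, batch 1, wild-type retinas whose labels give the treatment IL1A+TNF (10 retinas, 6 from females and 4 from males) or IL1 (9 retinas, 4 from females and 5 from males; written IL1A here), 19 of the 109 retinas of the series. Mice were 2 to 6 months old by the study's methods, each of the 19 retinas came from a different mouse, and the other eye of each mouse received PBS (8 and 7 of these PBS retinas are among the samples). The question was which transcripts TNF adds to, or takes from, the response to IL1A, in bulk RNA from all cells of the retina. Total counts per retina ranged from 36883363 to 45779899 with IL1A+TNF and from 32032592 to 41179799 with IL1A.

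IL1A and TNF are cytokines that activated microglia release, and astrocytes, Müller glia, vessels and neurons carry their receptors. IL1A signals through IL1R1 and the adaptor MYD88, TNF through TNFRSF1A and RIPK1, and both lead to NF-kB, a transcription factor that turns on chemokines and also its own inhibitors. Interferons signal through receptors of their own that activate STAT and IRF transcription factors, and these switch on antiviral genes, guanosine triphosphatases (GTPases) of the GBP and IRG families and the machinery that loads peptides onto MHC class I. Photoreceptors make up most cells of the mouse retina, so their genes supply a large share of its RNA.

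Levels are counts scaled to the library total after TMM normalisation (CPM), given as the lowest, median and highest retina of a group. Differences are log2 fold changes of IL1A+TNF minus IL1A, with sex in the model, from limma-voom, and a gene is called where its Benjamini-Hochberg FDR over all 19548 genes tested was under 0.05. Rose and fell are used only for called genes.

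Retinas within each group did not all look alike. The summed level of 33 genes induced by type I interferon was 315 CPM in mouse 60780 and 427 CPM in mouse 60215, while the other 8 IL1A+TNF retinas ran from 1059.9 to 1718 CPM. Among the IL1A retinas, mouse 60637 stood at 999.98 CPM and the other 8 between 292 and 541 CPM. Summed rod transcripts ran the other way, at 66047 and 55129 CPM in mice 60780 and 60215 against 38209 to 50188 CPM in the rest of the IL1A+TNF group, and at 40635 CPM in mouse 60637 against 54501 to 69558 CPM in the rest of the IL1A group. In both measures mice 60780 and 60215 lay inside the range of those 8 IL1A retinas, and mouse 60637 was nearer to the other IL1A+TNF retinas. The interferon sums of mice 60780 and 60215 also lay inside the 193 to 625 CPM of the PBS retinas, as did those of the 8 IL1A retinas. In mouse 60641 the PBS eye had more interferon transcripts than the IL1A eye, with sums of 625 and 381 CPM. Irgm1 was at 54.96 and 22.9 CPM and Cd274 at 19.8 and 8.39 CPM in these eyes. Lcn2 ran the other way, at 269 and 591 CPM. This pair entered the fit below with mouse as a fixed factor, and its PBS eye entered the comparison of PBS eyes. The effect of the pair on these results was not tested. The labels were kept as given. Counts below are also given without mice 60780 and 60637, a choice made after the data were seen, and leaving out these particular retinas raises the counts by construction. Mouse 60215 was kept in that alternative; without it alone 1150 genes rose and 949 fell, against 1054 and 914 with all retinas.

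**Figure D1:**
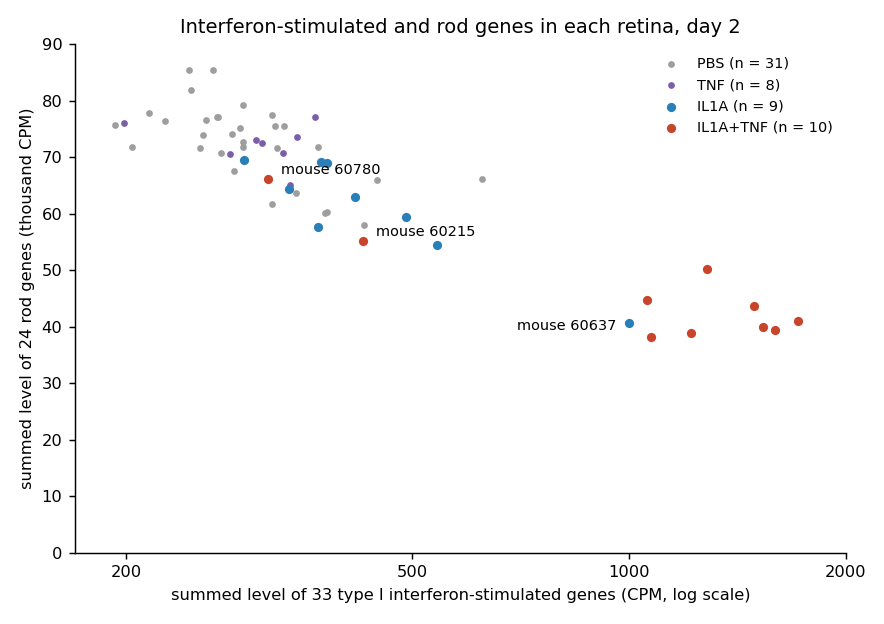
Each of the 19 retinas by its summed CPM of the interferon-induced genes and of the rod genes, on a log axis for the former and on a linear axis for the latter, coloured by treatment with PBS (31) and TNF (8) retinas shown too. Mice 60780 and 60215 (IL1A+TNF) lie among the IL1A retinas at 315 and 427 CPM, and mouse 60637 (IL1A) lies at 999.98 CPM, near the 8 other IL1A+TNF retinas.

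Adding TNF to IL1A raised 1054 genes and lowered 914. This was 10.1% of the genes tested in either direction, 5.39% higher and 4.68% lower, with a median difference of -0.01 over all genes. Among the 10 smallest FDRs of the genes that rose were those of Slain2, the heme-degrading enzyme Hmox1, Hap1, Daxx and the interferon regulatory factor Irf2, and among the 10 smallest of those that fell were Capn3, the selective autophagy receptor Optn, the RGS9 anchor Rgs9bp and the cone opsin Opn1sw. When the 19 retinas were fitted without the PBS and TNF retinas, 579 genes rose and 491 fell. The list counts below are also given from that fit where a count of 3 or more moved by over 1.5 times. Smaller counts moved too. With the 19 retinas alone 0 leukocyte adhesion, endothelin, barrier and neutrophil genes were called and 1 amacrine and horizontal cell gene fell. There 1 monocyte marker rose, and 1 proliferation gene rose and 1 fell. List counts are to be read beside the 5.39% and 4.68% of all genes. Without mice 60780 and 60637 the numbers over all genes were 1804 higher (9.23%) and 1781 lower (9.11%). With upper quartile scaling in place of TMM they were 846 higher and 1163 lower, which moves the share of higher calls from 53.6% to 42.1%. When mouse was a fixed factor, so that each injected retina was set against the PBS eye of the same animal (8 IL1A+TNF and 7 IL1A mice), limma called 0 genes at a smallest FDR of 0.0577, with 2106 genes under an unadjusted p of 0.05, and 1965 of the 1968 genes called above kept their direction.

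**Figure D2:**
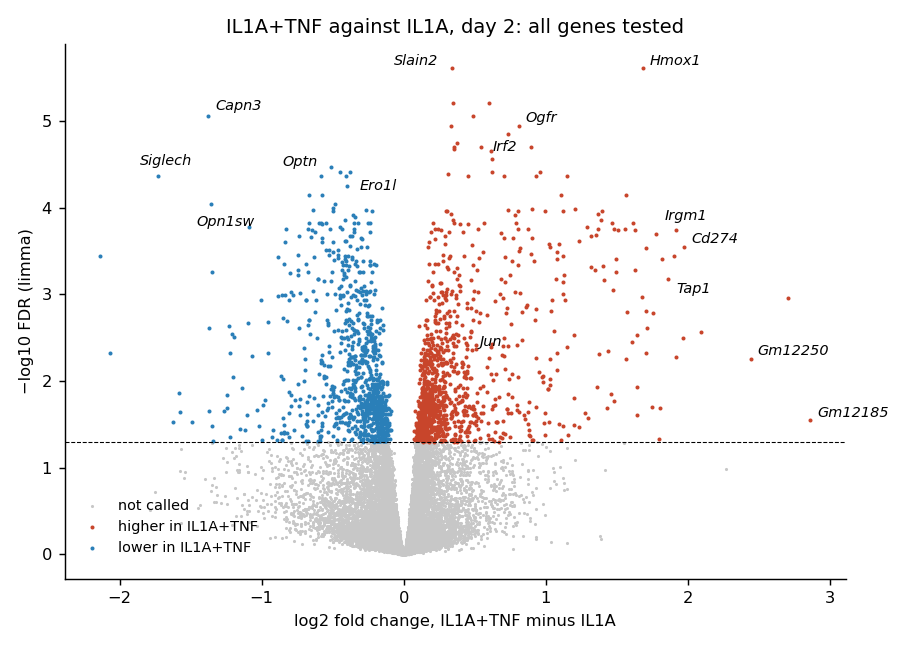
Log2 fold change (IL1A+TNF minus IL1A) on the x axis and -log10 of the FDR on the y axis for the 19548 genes tested, with called genes coloured. Hmox1 and Slain2 stand at the top, Gm12185 and Gm12250 farthest to the right at 2.86 and 2.44 among the labelled genes, and most of the 914 lower genes lie between 0 and -1.

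Interferon genes rose together. Of 17 interferon receptor and signalling genes tested, 10 rose and 0 fell (median 0.55; 6 rose with the 19 retinas alone). STAT2 carries the interferon signal to the nucleus. Stat2 stood at 71.8, 397 and 486 CPM (lowest, median, highest) with IL1A+TNF and at 72.9, 100.4 and 318 CPM with IL1A (1.37, SE 0.25, FDR 0.000175), and 6 of the 10 IL1A+TNF retinas lay above every IL1A retina. Irf1, an early interferon-gamma target and itself a transcription factor, was at 14.7, 55.3 and 81.5 CPM against 13.7, 15.5 and 38.2 CPM (1.37, SE 0.24, FDR 0.000119). Irf7, which amplifies type I interferon responses, was at 15.4, 174 and 232 CPM against 26.8, 35.5 and 119 CPM (1.63, SE 0.32, FDR 0.000528). For Irf7, 8 IL1A+TNF retinas exceeded all IL1A retinas, 1 (mouse 60780) lay below all of them, and mouse 60215 had 27.6 CPM. Irf8, a factor of myeloid cells, rose by 1.36 (FDR 0.000205) and Irf9 by 1.13 (FDR 0.000597). The negative regulators rose as well, with Usp18 at 1.76 (FDR 0.00162) and Socs1 at 1.36 (FDR 0.0117).

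Receptors and ligands of interferon were not called. Ifnar1 was at 72.4, 74.0 and 80.3 CPM with IL1A+TNF and 67.5, 70.2 and 81.7 CPM with IL1A (0.05, SE 0.03, FDR 0.339), and Ifngr1 differed by 0.01 (SE 0.07, FDR 0.954). None of the 17 interferon ligand genes in the table had enough counts to be tested. Ifng had at most 3 counts in a retina and was counted in 2 IL1A+TNF and 1 IL1A retinas, Ifnb1 had 1 count in 1 IL1A+TNF retina, and the highest count of any ligand gene in any of the 19 retinas was 7 (Ifnk). The table therefore holds the response genes but almost no reads of the ligands at this time.

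Sequence upstream of these genes is shown because the promoters of interferon-induced genes carry short elements that STAT and IRF proteins recognise. Each stretch below runs from 250 bases before the RefSeq gene start to 50 bases after it (GRCm38.p6), and capitals mark matches to 3 letter patterns searched on both strands. TTCNNNGAA is the GAS-like pattern of STAT dimers, GAAANNGAA the ISRE-like pattern of STAT-IRF complexes and GGNNTTTCC a kB-like pattern. The windows lie at chr11:53769764-53770063 on the plus strand (Irf1), chr11:58199306-58199605 on the plus strand (Igtp), chr3:142530086-142530385 on the plus strand (Gbp7), chr11:48871371-48871670 on the minus strand (Irgm1), chr19:34640639-34640938 on the plus strand (Ifit1) and chr10:19015361-19015660 on the minus strand (Tnfaip3, an NF-kB target described below).
Irf1: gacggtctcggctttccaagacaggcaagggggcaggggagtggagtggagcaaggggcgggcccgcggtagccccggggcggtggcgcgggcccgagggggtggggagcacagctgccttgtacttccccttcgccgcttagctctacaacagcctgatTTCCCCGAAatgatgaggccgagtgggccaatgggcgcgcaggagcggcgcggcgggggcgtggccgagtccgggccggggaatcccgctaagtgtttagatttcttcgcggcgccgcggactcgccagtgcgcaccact
Igtp: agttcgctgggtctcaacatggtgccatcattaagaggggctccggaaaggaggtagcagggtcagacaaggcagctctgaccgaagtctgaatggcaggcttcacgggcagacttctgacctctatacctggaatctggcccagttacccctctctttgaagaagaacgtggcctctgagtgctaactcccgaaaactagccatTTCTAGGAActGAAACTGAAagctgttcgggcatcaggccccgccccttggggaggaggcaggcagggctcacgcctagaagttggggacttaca
Gbp7: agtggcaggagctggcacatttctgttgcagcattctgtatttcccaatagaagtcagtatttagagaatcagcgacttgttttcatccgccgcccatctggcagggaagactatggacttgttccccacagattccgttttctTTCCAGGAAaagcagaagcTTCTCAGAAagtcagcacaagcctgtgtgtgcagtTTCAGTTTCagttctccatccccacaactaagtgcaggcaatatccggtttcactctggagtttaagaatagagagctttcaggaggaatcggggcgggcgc
Irgm1: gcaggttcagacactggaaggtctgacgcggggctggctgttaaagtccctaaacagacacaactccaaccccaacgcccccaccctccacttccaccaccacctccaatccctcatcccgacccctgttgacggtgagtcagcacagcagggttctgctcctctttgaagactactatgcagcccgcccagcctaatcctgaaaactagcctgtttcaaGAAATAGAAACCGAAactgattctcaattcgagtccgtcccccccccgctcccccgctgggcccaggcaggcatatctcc
Ifit1: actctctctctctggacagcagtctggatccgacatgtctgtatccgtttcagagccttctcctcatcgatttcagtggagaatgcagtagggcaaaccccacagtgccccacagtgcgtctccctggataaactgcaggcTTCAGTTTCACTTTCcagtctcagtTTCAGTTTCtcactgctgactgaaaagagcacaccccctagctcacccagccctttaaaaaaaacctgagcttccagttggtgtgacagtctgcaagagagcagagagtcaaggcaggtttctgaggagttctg
Tnfaip3: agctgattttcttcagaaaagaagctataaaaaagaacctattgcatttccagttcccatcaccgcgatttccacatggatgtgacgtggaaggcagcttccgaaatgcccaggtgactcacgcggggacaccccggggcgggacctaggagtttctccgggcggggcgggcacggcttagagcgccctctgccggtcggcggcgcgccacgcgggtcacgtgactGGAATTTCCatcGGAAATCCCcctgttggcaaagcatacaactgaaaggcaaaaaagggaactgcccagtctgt
Positions are counted from the gene start, with -1 the base before it. Irf1 has 1 GAS-like match (-90 to -82). Its window also holds the run ggggaatccc, which the kB-like pattern as written does not cover. Igtp has a GAS-like match (-45 to -37) 2 bases from an ISRE-like one (-34 to -26). Gbp7 has 2 GAS-like matches (from -106 and from -87) and 1 ISRE-like match (-52 to -44). Irgm1 has 2 ISRE-like matches that overlap (-30 to -22 and -24 to -16). Ifit1 has 3 ISRE-like matches, of which the first pair overlap (from -109, -103 and -84). Tnfaip3 has 2 kB-like matches (-24 to -16 and -12 to -4) and no match to the other patterns. Irf1 and Tnfaip3 have a second window in the table with no match.

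The share of genes with each pattern differed between the lists. The ISRE-like pattern stood in the window of all 10 GBP and IRG genes with an entry and of 15 of 24 type I interferon genes (62.5%), against 8.74% of the 12991 tested genes with an entry, 11.9% of the 825 called higher and 6.58% of the 653 called lower. The GAS-like pattern was in 6 of the 10 GBP and IRG genes and 5 of 15 signalling genes, against 8.28% of all tested. The kB-like pattern was in 9 of 21 NF-kB pathway genes (42.9%) against 7.1% of all tested, 8.12% of those called higher and 5.97% of those called lower. A match is a run of letters and does not show that a protein binds there. Each pattern is narrow, so a window without a match can still hold other forms of these sites.

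Of the 17 GBP and IRG GTPases tested, which attack the membranes around intracellular pathogens, 10 rose and 0 fell, with a median of 1.62 (13 and 2.08 without mice 60780 and 60637, and 5 rising with the 19 retinas alone). Irgm1 was at 15.5, 158 and 226 CPM with IL1A+TNF and at 14.6, 26.9 and 104 CPM with IL1A (1.92, SE 0.35, FDR 0.000182). Igtp rose by 1.90 (SE 0.37, FDR 0.000357) and Gbp7 by 1.63 (SE 0.30, FDR 0.000182), in each case with 8 IL1A+TNF retinas above every IL1A retina. Gbp3 rose by 1.03 (FDR 0.000262), whereas Gbp2 was at 16.9, 21.8 and 27.6 CPM against 13.2, 16.7 and 21.5 CPM and was not called (0.33, SE 0.15, FDR 0.139). Gm12185 (2.86, SE 0.89, FDR 0.0282), Gm12250 (2.44, FDR 0.00555) and Tgtp1 (2.10, FDR 0.00271) had the largest differences among called genes of at least 1 CPM. Gm4951 differed by 1.92 (FDR 0.0053). Gm12250 is counted among the 17 GTPases, although the annotation used gives it as a pseudogene. Genes of this family are near copies of each other and their separate levels are uncertain. Gm12185 lost its call in 2 of the 19 fits that each left out 1 retina.

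Among 33 genes induced by type I interferon, 21 rose and 0 fell, and all 33 estimates were above 0 (median 1.08; 28 rose without the 2 mice and 13 with the 19 retinas alone). Ifit1, which binds foreign RNA ends, was at 8.96, 55.9 and 90.8 CPM against 7.83, 12.8 and 43.5 CPM (1.41, SE 0.29, FDR 0.000672). The antiviral GTPase Mx2 was at 1.5, 16.5 and 28.1 CPM against 1.68, 2.78 and 11.1 CPM (1.97, SE 0.46, FDR 0.0032). Parp14, Ifit3 and the ubiquitin-like modifier Isg15 rose by 1.57, 1.32 and 0.81, and the virus tether Bst2 by 1.5. Samhd1, which depletes nucleotides, rose by 0.90 (FDR 2e-05). Ifitm3 did not separate the groups, at 26.2, 35.2 and 65.9 CPM against 20.2, 36.4 and 47.6 CPM (0.01, SE 0.21, FDR 0.991). Ifit3 and Ifit3b share sequence, so their separate levels are uncertain.

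**Figure D3:**
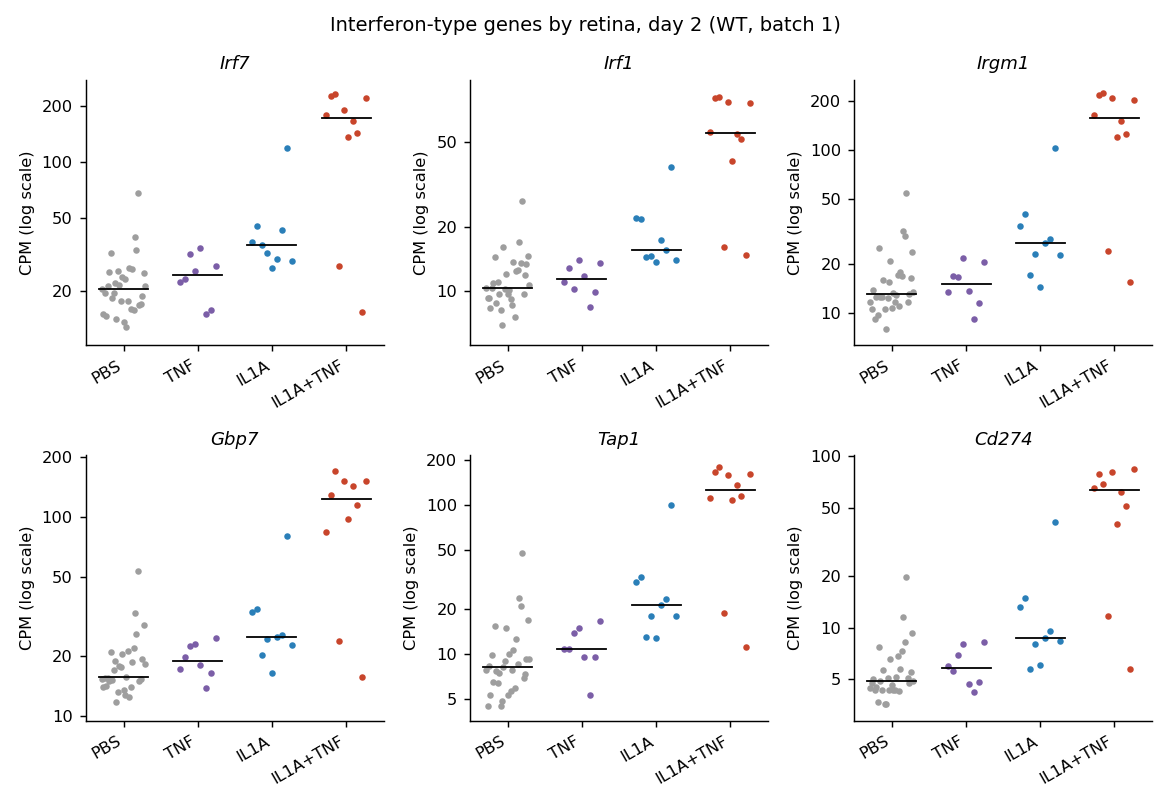
CPM (log axis) of Irf7, Irf1, Irgm1, Gbp7, Tap1 and Cd274 with PBS, TNF, IL1A and IL1A+TNF, 1 point per retina and a bar at each median. In each panel 7 or 8 of the 10 IL1A+TNF retinas lie above all 9 IL1A retinas, and the lowest IL1A+TNF point is mouse 60780.

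Genes of MHC class I presentation rose as well. Of 22 tested, 15 rose and 0 fell (median 0.53; 18 without the 2 mice). Tap1, a subunit of the peptide transporter, was at 11.1, 126 and 180 CPM against 12.8, 21.2 and 101 CPM (1.86, SE 0.38, FDR 0.000658). The immunoproteasome subunits Psmb8 and Psmb9 rose by 1.09 (FDR 0.000262) and 1.48 (FDR 0.000894), and the chaperone Tapbp was at 114, 368 and 436 CPM against 110, 131 and 295 CPM (1.11, SE 0.18, FDR 7.03e-05). Nlrc5, the transactivator of these genes, rose by 1.71 (FDR 0.00154). Of the heavy chains, H2-D1 rose by 1.05 (FDR 0.00116) and H2-K1 by 0.55 (FDR 0.0285, lost in 5 of the 19 leave-one-out fits). Heavy chains are near copies of each other and their shares of the reads are uncertain. B2m, the invariant light chain, was at 69.8, 97.4 and 147 CPM against 49.8, 71.2 and 101 CPM and was not called (0.45, SE 0.18, FDR 0.102). Cd274, which encodes the checkpoint ligand PD-L1, was at 5.75, 63.5 and 84.0 CPM against 5.78, 8.76 and 41.0 CPM (1.98, SE 0.37, FDR 0.000282).

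MHC class II genes were not called. None of 13 passed the threshold (median -0.16), where 10.1% of all genes did. Cd74, the invariant chain, was at 30.6, 69.5 and 86.2 CPM with IL1A+TNF and 18.6, 74.6 and 112 CPM with IL1A (-0.11, SE 0.43, FDR 0.916). In the 31 PBS retinas its median was 10.7 CPM, so both cytokine groups stood above PBS, and the comparison between them was imprecise. Without mice 60780 and 60637, 0 of the 13 genes were called as well.

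Hmox1, which splits heme into iron, carbon monoxide and biliverdin, had the smallest FDR of all genes together with Slain2. It was at 86.1, 143 and 171 CPM with IL1A+TNF and 19.8, 39.1 and 101 CPM with IL1A, against a median of 11.2 CPM with TNF alone and 7.82 CPM with PBS (1.68, SE 0.22, FDR 2.45e-06). Every IL1A+TNF retina other than that of mouse 60780 lay above every IL1A retina. Mouse 60215, whose Irf7 was low, had 163 CPM of Hmox1, so the retinas were not ordered alike by the 2 genes. Of 25 oxidative stress and iron genes, 10 rose and 1 fell (median 0.22; 7 to 11 rose when 1 retina was left out).

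Ferritin and iron exporter genes rose and an importer fell. Ftl1, the ferritin light chain, was at 326, 464 and 582 CPM against 183, 269 and 373 CPM (0.78, SE 0.14, FDR 0.000121). Fth1, the heavy chain, rose by 0.27 (FDR 0.0269, lost in 5 leave-one-out fits) and the exporter Slc40a1 by 0.45 (FDR 0.00125), while the importer Tfrc was at 100, 124 and 158 CPM against 134, 172 and 188 CPM (-0.41, SE 0.08, FDR 0.000388). Slc11a1, an iron transporter of phagocyte membranes, rose by 0.74 (FDR 0.0141). The glutathione and thioredoxin enzymes Gclm, Txnrd1 and Srxn1 rose by 0.27, 0.31 and 0.22. Nqo1, another gene of this stress response, had medians of 3.13 and 4.35 CPM and an estimate of -0.42 (SE 0.16, FDR 0.0784).

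**Figure D4:**
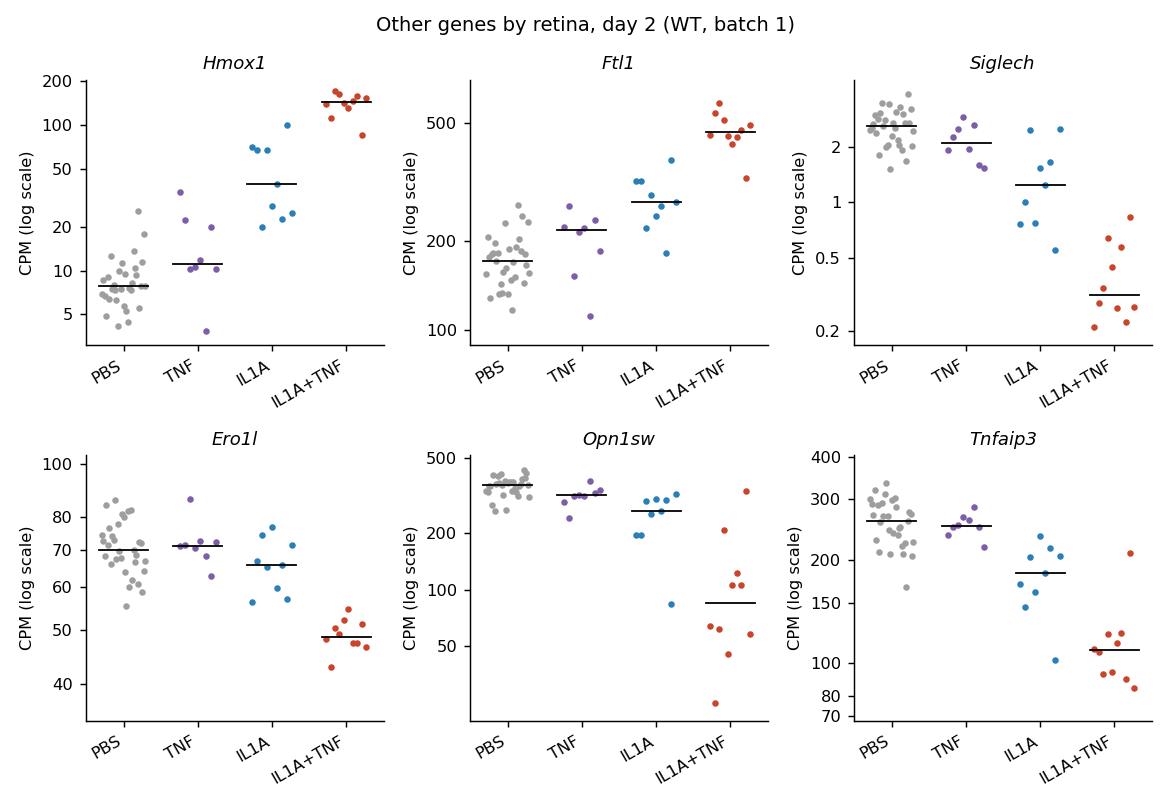
CPM (log axis) of Hmox1, Ftl1, Siglech, Ero1l, Opn1sw and Tnfaip3 with PBS, TNF, IL1A and IL1A+TNF, 1 point per retina and a bar at each median. For Hmox1 and Ftl1, 9 of the 10 IL1A+TNF retinas lie above all IL1A retinas, Ero1l does not overlap, and 1 IL1A+TNF retina (mouse 60780) is the highest of its group for Opn1sw and Tnfaip3.

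Genes of regulated cell death changed in part. Of 19 genes of the caspase-8 and necroptosis pathway, 4 rose and 1 fell (median 0.18). The kinase Ripk1 was at 11.7, 24.6 and 35.3 CPM against 11.5, 13.1 and 21.3 CPM (0.71, SE 0.14, FDR 0.000367). Mlkl, which perforates the membrane in necroptosis, was at 0.67, 2.09 and 3.71 CPM against 0.67, 0.833 and 1.76 CPM (1.12, SE 0.24, FDR 0.000991), and the nucleic acid sensor Zbp1 rose by 1.13 (FDR 0.00116). The other riser was the RNA-activated kinase Eif2ak2 (1.29, FDR 0.000165). Zbp1 and Eif2ak2 are also members of the type I interferon list. Ripk3 was at 0.960, 1.18 and 2.01 CPM against 0.328, 0.830 and 1.49 CPM (0.59, SE 0.26, FDR 0.135) and Casp8 at 5.36, 6.83 and 10.9 CPM against 3.13, 6.44 and 7.57 CPM (0.26, SE 0.15, FDR 0.286), so neither was called.

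Of 23 BCL2 family and p53 target genes, 4 rose and 1 fell (median 0.19), and 11 rose and 2 fell without mice 60780 and 60637. The number higher was 1 without mouse 60220, 10 without mouse 60780 and 2 with the 19 retinas alone. Bcl2, which restrains apoptosis, fell from a median of 24.5 to 18.8 CPM (-0.35, SE 0.08, FDR 0.00259), with 8 IL1A+TNF retinas under every IL1A retina. The cell cycle inhibitor Cdkn1a rose by 0.71 (SE 0.18, FDR 0.0051) and Mcl1 by 0.24 (FDR 0.0347, lost in 9 leave-one-out fits). Of 16 pyroptosis and inflammasome genes 1 rose, Ninj1, which ruptures the membrane of dying cells (0.53, SE 0.11, FDR 0.000924).

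Genes known from injured retinal ganglion cells (RGCs) were among those that rose, in bulk RNA that does not show which cells held them. Among 28 AP-1, stress kinase and axon injury genes, 11 rose and 2 fell (median 0.26), with 6 rising when mouse 60212 was left out and also with the 19 retinas alone. JUN is the AP-1 factor that injured RGCs phosphorylate. Jun was at 48.9, 86.7 and 121 CPM with IL1A+TNF against 47.7, 55.0 and 85.8 CPM with IL1A (0.48, SE 0.12, FDR 0.00433), and 5 IL1A+TNF retinas lay above all IL1A retinas. Atf3, a stress factor of injured neurons, was at 14.6, 52.6 and 68.7 CPM against 12.3, 21.7 and 46.5 CPM (1.04, SE 0.23, FDR 0.00157). Low-level genes that axotomised neurons induce also rose: the endopeptidase Ecel1 by 1.15 (FDR 4.26e-05), the neuropeptide Gal by 1.03 (FDR 0.000283) and the cornified envelope gene Sprr1a by 1.58 (FDR 0.00157). Ecel1 was at 1.96, 2.63 and 4.32 CPM against 0.720, 1.14 and 2.02 CPM, with 9 IL1A+TNF retinas above every IL1A retina. Junb, Tnfrsf12a and Ddit3 rose by 0.68, 0.51 and 0.20, calls that were lost in 12, 6 and 8 of the 19 leave-one-out fits.

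Axon degeneration genes did not move one way. Nampt, which makes the NAD precursor, was at 78.4, 151 and 195 CPM against 81.5, 85.9 and 109 CPM (0.61, SE 0.09, FDR 2.21e-05). Sarm1, the enzyme that destroys NAD in injured axons, was at 76.7, 87.5 and 98.5 CPM against 86.4, 96.8 and 115 CPM and was not called (-0.16, SE 0.06, FDR 0.0637; -0.21 and FDR 0.0114 without mice 60780 and 60637). Map3k12, the kinase DLK upstream of JUN, fell by 0.18 (SE 0.04, FDR 0.002). Fos (0.16, FDR 0.626) and the growth cone gene Gap43 (0.11, FDR 0.446) were not called.

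Of 26 genes that mark RGCs, 4 fell and 0 rose (median -0.08, and 0.03 with mouse as a fixed factor). The number lower was 2 without mouse 60212, 7 without mouse 60637 and 1 with the 19 retinas alone. Rbpms, the usual RGC marker, was at 23.2, 24.5 and 29.4 CPM against 23.2, 28.8 and 35.0 CPM (-0.16, SE 0.05, FDR 0.0388, lost in 12 of 19 leave-one-out fits), and Chrna6 differed by -0.33 (FDR 0.0291, lost in 8). The RGC transcription factor Pou4f1 (-0.06, FDR 0.641) and the neurofilament gene Nefl (-0.05, FDR 0.711) were not called, and their groups overlapped throughout. In bulk RNA, fewer cells of a type and less RNA per cell cannot be told apart, for these and for all cell type genes that follow.

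Astrocyte and Müller glia genes rose in part. Of 13 pan-reactive genes 2 rose (median 0.09, and -0.13 with mouse as a fixed factor). Gfap, the intermediate filament of reactive glia, was at 124, 259 and 327 CPM against 89.5, 121 and 198 CPM (0.83, SE 0.20, FDR 0.00333), and 9 IL1A+TNF retinas lay above every IL1A retina. Vim rose by 0.46 (FDR 0.0494), a call lost in 16 of the 19 leave-one-out fits. Lcn2, an iron-binding acute phase protein, was at 316, 366 and 834 CPM against 229, 591 and 946 CPM (-0.45, SE 0.43, FDR 0.565), and Serpina3n had an estimate of -0.36 (SE 0.47, FDR 0.696). Of 11 tested A1 genes 4 rose (median 0.33), and all 4 (Psmb8, H2-T23, H2-D1, Iigp1) are interferon or MHC class I genes already counted above. Of 12 A2 genes 2 rose, the lipid kinase Sphk1 (0.62, SE 0.10, FDR 3.84e-05) and S100a10 (0.41, FDR 0.0168). Of 20 Müller glia genes 2 rose, among them the thyroid hormone binding protein Crym (0.62, SE 0.15, FDR 0.00375). Of 19 genes of the gp130 and STAT3 pathway, which drives gliosis, 3 rose and 1 fell, with 1 rising and 0 falling with the 19 retinas alone. The feedback inhibitor Socs3 rose by 0.88 (FDR 0.0229, lost in 2 leave-one-out fits) and the shared receptor Il6st by 0.33 (FDR 0.0176), while the ligands Lif (0.70, FDR 0.196) and Osm (0.88, FDR 0.245) were not called. Of 7 endothelin genes 1 rose, Ednrb (0.88, FDR 0.0413), which spanned 15 to 219 CPM with IL1A+TNF and lost its call in 9 leave-one-out fits.

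A minority of microglial genes was called. None of 14 homeostatic microglia genes rose and 3 fell (median -0.15, with -0.31 in females and 0.09 in males). Siglech, a lectin of resting microglia, was at 0.210, 0.313 and 0.831 CPM with IL1A+TNF, 0.552, 1.24 and 2.48 CPM with IL1A, and had a median of 2.58 CPM with PBS (-1.73, SE 0.28, FDR 4.33e-05). The purinergic receptor P2ry12 fell by 0.35 (FDR 0.0156) and Tmem119 by 0.48 (FDR 0.0316, lost in 8 leave-one-out fits), whereas Cx3cr1, at medians of 19.4 and 20.7 CPM, was not called (-0.21, SE 0.12, FDR 0.29). Of 21 disease-associated microglia genes, 5 rose and 0 fell (median 0.35); 11 rose without mouse 60780, 2 without mouse 60212 and 8 with the 19 retinas alone. The lysosomal glycoprotein Cd68 was at 17.4, 26.1 and 36.2 CPM against 6.44, 16.9 and 17.6 CPM (0.86, SE 0.19, FDR 0.00141), with 9 of 10 IL1A+TNF retinas above all IL1A retinas. The microglial growth factor Csf1 rose by 0.70 (SE 0.15, FDR 0.00109), and Trem2 had an estimate of 0.40 (SE 0.20, FDR 0.196).

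Some genes of NF-kB itself, which both cytokines activate, were called. Of 29 NF-kB subunits, inhibitors and TNF receptor signalling genes, 3 rose (10.3%, against 5.39% of all genes) and 1 fell (3.45%, against 4.68%). Their median was 0.09, and 1 rose without mouse 60212 and with the 19 retinas alone. The gene that fell was Tnfaip3, which encodes A20, the ubiquitin-editing brake on NF-kB. It was at 84.8, 109 and 210 CPM with IL1A+TNF and 102, 183 and 235 CPM with IL1A, and had medians of 251 CPM with TNF and 260 CPM with PBS (-0.65, SE 0.12, FDR 0.000215), so that its level was lowest with both cytokines. Nfkbia, the classical feedback inhibitor, was at 25, 29.3 and 44.1 CPM against 19.5, 29.9 and 37.6 CPM (0.09, SE 0.10, FDR 0.653). Bcl3 rose by 0.81 (FDR 0.0226) and Rela by 0.19 (FDR 0.0376), calls lost in 3 and 13 leave-one-out fits, and Ripk1 is given above.

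Ligands, receptors and adaptors of the wider TNF and IL1 families gave 4 increases and 0 decreases among 24 genes (median 0.30). The number higher was 2 to 6 when 1 retina was left out and 0 with the 19 retinas alone. Myd88, the IL1 and Toll-like receptor adaptor, rose by 0.61 (SE 0.15, FDR 0.00403), and Irak3 (0.56) and Ltbr (0.42) were the others with Tnfrsf12a. The injected cytokines' own genes stayed low. Tnf was at 0.346, 0.852 and 1.34 CPM against 0.278, 0.523 and 1.05 CPM (0.43, SE 0.26, FDR 0.32), Il1a differed by 0.31 (SE 0.19, FDR 0.331) and Il1b by 0.09 (SE 0.32, FDR 0.901). The receptor genes of the injected cytokines, Tnfrsf1a (0.28, FDR 0.201), Tnfrsf1b (0.51, FDR 0.0745) and Il1r1 (-0.04, FDR 0.886), were not called. Of 22 Toll-like receptor genes 3 rose, namely Myd88, the endosomal RNA receptors Tlr3 (0.38, FDR 0.00804) and Tlr7 (0.65, FDR 0.0186).

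Chemokine genes were not called. None of 12 CXC chemokine genes (median -0.07) and none of 16 CC chemokine genes (median 0.01) passed the threshold, though 1 and 2 rose and 1 CC gene fell without mice 60780 and 60637. Over all genes 10.1% were called, so lists of this size would hold few calls at that share. Ccl2, which draws monocytes, was at 1.56, 2.19 and 6.41 CPM against 1.72, 3.67 and 6.70 CPM (-0.40, SE 0.38, FDR 0.566). Cxcl1 (-0.36, SE 0.46, FDR 0.684) and the interferon-induced Cxcl10 (0.87, SE 0.55, FDR 0.345) had wide errors. None of 20 complement genes was called (median -0.03), and C3 was at 97.8, 164 and 225 CPM against 36.3, 207 and 295 CPM (-0.17, SE 0.46, FDR 0.868). Of 20 leukocyte adhesion genes 1 rose and 1 fell (5% each, near the 5.39% and 4.68% of all genes), with the leukocyte integrin chain Itgb2 at 0.73 (FDR 0.0209). Of 27 proteases and their inhibitors 3 rose (1 with the 19 retinas alone), among them Adam8 (0.82, SE 0.15, FDR 0.000288) and Mmp9 (0.63, FDR 0.0192). Of 20 barrier genes 1 fell (5%, near the 4.68% of all genes), namely Vegfa (-0.23, FDR 0.0235, lost in 5 leave-one-out fits), and none of 24 proliferation genes was called.

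Markers of other cells that could be in the samples were read alongside. Neutrophil markers summed to 584 to 1897 CPM with IL1A+TNF and 322 to 1437 CPM with IL1A, and 1 of 11 tested was called (Mmp9); S100a8 was at 18.4, 23.8 and 176 CPM against 8.08, 20.1 and 47.8 CPM (0.58, FDR 0.33). Monocyte markers summed to 498 to 1341 CPM against 275 to 712 CPM, with 0 of 12 called. Lyz2, the most abundant of these, was above every IL1A retina in 9 of 10 IL1A+TNF retinas, at 176, 319 and 525 CPM against 39.8, 160 and 223 CPM (1.13, SE 0.51, FDR 0.15). Markers of T and NK cells (4 tested), B cells (5), eosinophils and mast cells (2) and erythrocytes (5) gave 0 calls. Lens markers ranged from 5.01 to 3094 CPM and 4.14 to 1160.1 CPM in sum (0 of 14 called). Pigment epithelium markers ranged from 202 to 784 CPM and 297 to 755 CPM (0 of 13 called, median -0.90). All 13 of their estimates were below 0, and Rgr and Otx2 are also in the Müller glia and bipolar cell lists. Of 9 ciliary body and iris markers 1 was called. The part of these cells in the immune, glial and neuronal results was not tested.

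Photoreceptor transcripts fell. Of 24 rod genes, 17 fell and 0 rose, and all 24 estimates were below 0 (median -0.31; 22 fell without mice 60780 and 60637 and 11 with the 19 retinas alone). Gnat1, the alpha subunit of the rod G protein, was at 4189, 4824 and 8457 CPM with IL1A+TNF and at 4532, 7900 and 8657 CPM with IL1A, against a median of 8976 CPM with PBS (-0.50, SE 0.10, FDR 0.000323). The groups overlapped, with 4 IL1A+TNF retinas below every IL1A retina. Its beta subunit Gnb1 fell by 0.60 (FDR 0.000151). Other rod genes that fell were phosducin, Pdc (-0.69, FDR 0.000441), the rod transcription factor Nrl (-0.44, FDR 0.000798) and the disc rim gene Prph2 (-0.40, FDR 0.000633). Sag, rod arrestin, was at 3188, 3828 and 4842 CPM against 3303, 3961 and 4766 CPM and was not called (-0.06, SE 0.09, FDR 0.753). Leaving out 1 retina gave 16 to 21 lower rod genes.

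Cone genes fell too. Of 17, 13 fell and 0 rose, with a median of -0.40. Opn1sw, the short-wavelength opsin, was at 25.2, 85.1 and 333 CPM against 84.2, 260 and 321 CPM (-1.36, SE 0.23, FDR 9.05e-05), where the retina at 333 CPM is mouse 60780 and the IL1A retina at 84.2 CPM is mouse 60637. Arr3, cone arrestin, was at 21.7, 30.5 and 119 CPM against 36.7, 70.4 and 120 CPM (-1.0, SE 0.21, FDR 0.00117), Opn1mw fell by 0.74 (FDR 0.000354) and the cone G protein Gnat2 by 0.60 (FDR 0.000668). The sum of the cone genes was 1400 to 2236 CPM against 1786 to 2237 CPM. Rgs9bp, which anchors the enzyme that ends the light response, was at 407, 523 and 887 CPM against 530, 838 and 1024 CPM (-0.58, SE 0.09, FDR 4.26e-05).

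Inner retina genes fell in smaller number. Of 20 bipolar cell genes 8 fell and 0 rose (median -0.23), with 4 lower without mouse 60212 or with the 19 retinas alone and 12 without mouse 60637. Grm6, the glutamate receptor of ON bipolar cells, was at 75.2, 103 and 133 CPM against 112, 121 and 136 CPM (-0.27, SE 0.08, FDR 0.0146), with 9 IL1A+TNF retinas under every IL1A retina, and the channel it closes, Trpm1, fell by 0.28 (FDR 0.0331, lost in 4 leave-one-out fits). Vsx1 and Tacr3 of OFF bipolar cells fell by 0.42 and 0.41, and Isl1 by 0.32. Of 23 amacrine and horizontal cell genes 2 fell (median -0.03), among them the glycine transporter Slc6a9 (-0.19, FDR 0.0131). Of 32 synapse genes 4 fell (9 without mouse 60637), including the vesicular glutamate transporter Slc17a7 (-0.30, FDR 0.00497) and the active zone gene Rims2 (-0.31, FDR 0.00595). Of 37 ion channel genes 7 fell and of 31 GABA, glycine and glutamate receptor genes 6 fell, with 0 rising in either; Kcnv2 (-0.32, FDR 0.00277) and Cacna1f (-0.36, FDR 0.00524) are channels of photoreceptors. Leaving out 1 retina gave 5 to 11 lower channel genes and 4 to 9 lower receptor genes, and the 19 retinas alone gave 2 and 3. With upper quartile scaling 11 bipolar cell, 6 synapse and 9 ion channel genes fell.

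**Figure D5:**
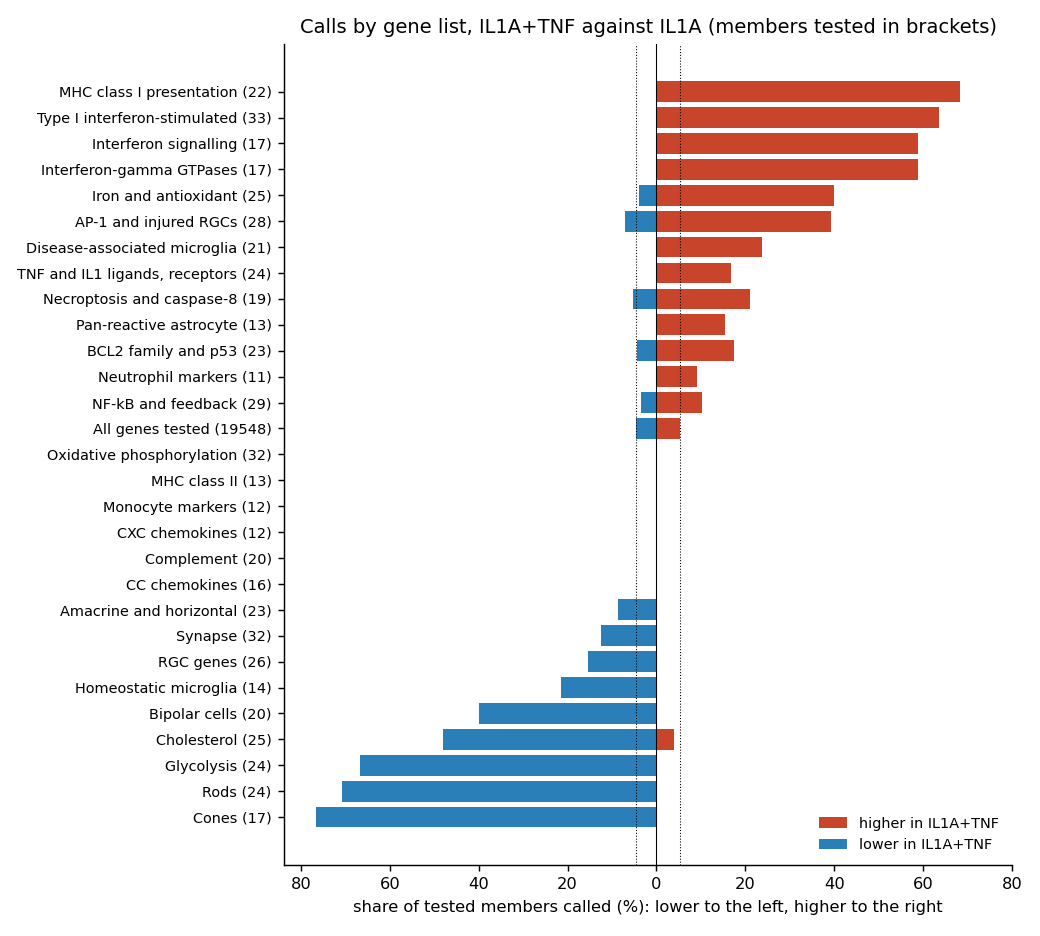
Share (%) of the tested members of each gene list called higher (to the right) or lower (to the left) in IL1A+TNF against IL1A, with the number tested in brackets and dotted lines at the 5.39% and 4.68% of all genes. MHC class I (15 of 22 higher) and the type I interferon list (21 of 33) extend farthest to the right, and cones (13 of 17) and rods (17 of 24) farthest to the left.

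Glycolysis genes fell. Of 24 glycolysis genes, 16 fell and 0 rose (median -0.29; 14 to 17 lower in the leave-one-out fits and 8 with the 19 retinas alone). Hk2, the hexokinase of photoreceptors, was at 266, 392 and 486 CPM against 360, 630 and 755 CPM (-0.58, SE 0.10, FDR 0.000151). The lactate exporter Slc16a3 fell by 0.67 (FDR 0.000175), Aldoa by 0.41 (FDR 0.00215), Pkm by 0.35 (FDR 0.00256) and Pdk1, which diverts pyruvate from mitochondria, by 0.51 (FDR 0.000556). Ero1l, which oxidises protein disulfides in the endoplasmic reticulum, was at 42.9, 48.7 and 54.7 CPM against 56.3, 65.5 and 76.9 CPM (-0.41, SE 0.07, FDR 4.26e-05), and there the groups did not overlap. None of 32 oxidative phosphorylation genes was called (median -0.01).

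Cholesterol synthesis and uptake genes gave 12 decreases and 1 increase among 25 (median -0.19), with 7 lower without mouse 60588. The sterol sensor partner Insig1 was at 34.5, 39.8 and 62.8 CPM against 42.6, 56.6 and 71.8 CPM (-0.49, SE 0.10, FDR 0.000402). The synthase Hmgcs1 fell by 0.31 (FDR 0.00323) and the transcription factor Srebf2 by 0.22 (FDR 0.00413). The gene that rose was the cholesterol exporter Abca1, at 124, 170 and 197 CPM against 91.8, 126 and 166 CPM (0.46, SE 0.12, FDR 0.00662).

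Outside the lists, other genes had small FDRs at modest size. Slain2, which promotes microtubule growth, was at 43.8, 50.7 and 57.7 CPM against 36.2, 40.7 and 47.6 CPM (0.34, SE 0.04, FDR 2.45e-06), and 8 IL1A+TNF retinas lay above every IL1A retina. Hap1 (0.60, FDR 6.17e-06), Zcchc2 (0.35, FDR 6.17e-06), the endosomal gene Ankfy1 (0.49, FDR 8.62e-06), 5031439G07Rik (0.33, FDR 1.14e-05), Ogfr (0.81, FDR 1.14e-05) and Daxx (0.73, FDR 1.4e-05) each had 8 IL1A+TNF retinas above every IL1A retina as well. Their medians with TNF alone and with PBS were near those with IL1A, as for Ogfr at 106 CPM with IL1A+TNF, 51.4 CPM with IL1A, 45.9 CPM with TNF and 44.9 CPM with PBS.

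On the lower side, Capn3, a calcium-dependent protease, was at 0.350, 0.739 and 1.27 CPM against 1.13, 1.79 and 2.84 CPM (-1.37, SE 0.20, FDR 8.62e-06), with 9 IL1A+TNF retinas under every IL1A retina. Optn was at 77.5, 90.8 and 126 CPM against 93.3, 136 and 152 CPM (-0.45, SE 0.07, FDR 3.84e-05). Grtp1, Kank1, Faah (which degrades anandamide), Pcsk4 and Glb1l2 fell by 0.51, 0.38, 0.40, 0.58 and 0.67. The largest decreases also included Glb1l3 (-1.49, FDR 0.0296, lost in 7 leave-one-out fits), Egfl6 (-1.35, FDR 0.000556) and the non-coding genes Gm15507, Gm14091, Gm16055 and Gm7616 (-1.37, -1.23, -1.22 and -1.19), each with a median under 5 CPM in both groups. Gm14091, Gm16055 and Gm7616 are annotated as antisense and Gm15507 overlaps Gm7616; strand use in counting was not given, so reads of the opposite strand may be included.

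Complete separation of the groups was rare. In 10 genes (0.0512% of those tested) every IL1A+TNF retina lay above every IL1A retina, and in 8 (0.0409%) every one lay below; these genes are named because of their values. The higher ones were Gm45837, Tmem104, Fam20c, Cited1, Sinhcaf, Tnfrsf21, Slc8b1, Hnrnpf, Ipo11 and Actn4, and none is an interferon gene of the lists. Tmem104 was at 16.3, 18.8 and 20.1 CPM against 12.7, 14.9 and 16.1 CPM (0.35, SE 0.05, FDR 2e-05). Fam20c, a kinase of secreted proteins, was at 14.6, 15.7 and 20.2 CPM against 10.7, 12.9 and 14.5 CPM (0.35, SE 0.06, FDR 0.000139). Tnfrsf21, the death receptor DR6, was at 37.7, 39.4 and 47.6 CPM against 24.9, 33.9 and 36.1 CPM (0.33, SE 0.09, FDR 0.0109). Several of these differences were small, as in Actn4 at 170, 174 and 190 CPM against 160.3, 163 and 167 CPM (0.11, SE 0.03, FDR 0.0105).

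The lower ones were Ero1l, Abhd18, Gramd2, Wdr78, Lmntd2, Ttc25, Lyrm9 and Nek1. Abhd18 was at 20.1, 27.2 and 30.4 CPM against 31.7, 37.6 and 50.3 CPM (-0.54, SE 0.10, FDR 0.000306). Gramd2 was at 87.8, 104 and 113 CPM against 119, 140 and 172 CPM (-0.43, SE 0.09, FDR 0.000518). Wdr78 and Ttc25 are genes of cilia and fell by 0.43 and 0.39, and the kinase Nek1, also of cilia, fell by 0.20.

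Each treatment's own values against PBS place these differences, keeping in mind that all comparisons share the same 31 PBS retinas. For the GBP and IRG genes the median log2 difference from PBS was 2.29 with IL1A+TNF, 0.71 with IL1A and 0.10 with TNF. For the type I interferon genes the values were 1.51, 0.59 and 0.03, and for MHC class I they were 1.35, 0.63 and 0.21. For rods they were -0.58, -0.26 and 0.01, and for cones -0.66, -0.27 and -0.06. CC chemokines stood at 0.91, 1.25 and -0.09, and MHC class II at 1.70, 1.85 and 1.17, and neither list had a called gene between IL1A+TNF and IL1A.

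The PBS eyes of the same mice gave a measure on differences between the animals. Between the PBS eyes of 8 IL1A+TNF mice and those of 7 IL1A mice, limma called 0 genes (0%), with 488 under an unadjusted p of 0.05. edgeR and DESeq2 also called 0, with 485 and 457 under that p. These fits held only those PBS eyes, not the 58 retinas of the main fit. Their 0 calls therefore do not show that the animals were alike. Mitochondrial transcripts took 2.68% to 3.44% of counts with IL1A+TNF and 2.80% to 3.63% with IL1A (difference of means -0.241 percentage points, exact permutation test, two-sided, p = 0.0653, adjusted p = 0.131 over 4 measures). The total count had an adjusted p of 0.131, hemoglobin 0.865 and crystallins 0.859 in the same exact permutation test.

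Sex was tested as a modifier. In males alone 1016 genes rose and 751 fell, and in females alone limma called 0 (1545 under an unadjusted p of 0.05, smallest FDR 0.126), although all 1968 genes kept their direction there. The test of the difference between sexes called 0 genes (0%; 1034 under an unadjusted p of 0.05, smallest FDR 0.657). Of the retinas that stood apart, mice 60780 and 60637 were female and mouse 60215 was male. The median of the GBP and IRG genes was 0.65 in females and 2.06 in males, and Hmox1 differed by 0.97 in females and 2.48 in males.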

How the data were processed

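Polyadenylated RNA of whole retinas was sequenced, and the authors aligned reads to mm10 with STAR 2.7.9a and counted them per gene with featureCounts of Subread 2.0.1. The deposited values are raw counts per gene, not normalised, in a table of 37315 genes. The strand setting of the counting is not given in the sources used here. Retinas were grouped by the labels.

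Counts were analysed after the study's design with limma 3.58.1 (voom), edgeR 4.0.16 and R 4.3.3. All 58 wild-type batch 1 day 2 retinas of 35 mice entered the model, with treatment, sex, TMM scaling and mouse as a random block (correlation 0.0515 over 2 rounds). Genes passed a minimum equal to 10 counts in a library of median size, in at least 8 retinas (the smallest group, TNF), and a total of 15. This left 19548, and the FDR threshold was 0.05. edgeR and DESeq2 1.42.0, other scalings, filters and covariates, a fixed mouse factor and leaving out each retina were alternatives. Mouse pairs the PBS and cytokine eyes of 1 animal, while the 19 retinas compared are from 19 mice. Only the limma contrast of IL1A+TNF against IL1A was tried on simulated counts with known changes, and without the mouse block.

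The members and the 48 gene lists (9 of markers of other cells) were chosen with earlier results of these data known. Genes were named where they were called at a mean of at least 1 CPM and had the 10 smallest FDRs or the 8 largest differences in a direction, where a list was described, or where the study names them; genes with no overlap were named after their values were seen. Positions are of GRCm38, and promoters and gene starts are RefSeq's for GRCm38.p6. Library measures were compared by an exact permutation test over all 92378 assignments. Some genes that these rules name are not reported here.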

Additional observations from a re-analysis of the deposited data

Results flagged for a closer look

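Some retinas lay far from the rest of their group. For each named gene the gap between the highest or lowest retina and its nearest neighbour was divided by the range of the group, on the log2 scale, and 59 of 380 groups had a larger gap than Dixon's test allows at the 95% level, where chance gives about 1 in 20. The value in brackets is that ratio. Mouse 60637 was the highest IL1A retina for Hap1 (0.735), Ankfy1 (0.550), Daxx (0.618), Irf2 (0.654), Cd274 (0.516), Stat2 (0.566), Irf1 (0.534), Irf7 (0.647), Irf8 (0.502), Gbp7 (0.533), Parp14 (0.496), Usp18 (0.523), Socs1 (0.508), Tap1 (0.538), Psmb9 (0.596), Tapbp (0.551), H2-D1 (0.512), Ripk1 (0.502), Mlkl (0.587), Eif2ak2 (0.576) and Junb (0.524). Mouse 60637 was the lowest IL1A retina for Grtp1 (0.610), Rgs9bp (0.540), Opn1sw (0.626), Gnat1 (0.592), Gnb1 (0.563), Opn1mw (0.531), Gnat2 (0.507), Kcne2 (0.506), Vsx1 (0.498), Chrna6 (0.524), Slc17a7 (0.588), Slc16a3 (0.716), Aldoa (0.541) and Pkm (0.620). Mouse 60588 was the lowest IL1A retina for Casp8 (0.574), Ripk3 (0.517), Tnfrsf1b (0.521), Cd68 (0.728), Cd74 (0.495), C3 (0.728), Lyz2 (0.722), Tnfrsf21 (0.550) and Slc8b1 (0.742). Mouse 60220 was the lowest IL1A retina for Cited1 (0.656). Mouse 60780 was the highest IL1A+TNF retina for Tnfaip3 (0.598) and Hmgcs1 (0.490). Mouse 60780 was the lowest IL1A+TNF retina for Tmem104 (0.598), Gm4951 (0.527), Erap1 (0.4662), Gal (0.612) and Gfap (0.631). Mouse 60212 was the highest IL1A+TNF retina for Gm45837 (0.506), Ifngr1 (0.580) and Fam20c (0.472). Mouse 60212 was the lowest IL1A+TNF retina for Trpm1 (0.496) and Vegfa (0.561). Mouse 59734 was the lowest IL1A+TNF retina for Cd74 (0.472) and H2-Ab1 (0.512).

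Of these 59 values 35 belong to mouse 60637, the IL1A retina that lay near most IL1A+TNF retinas for interferon and rod genes, and 9 to mouse 60588. Mouse 60588 was lowest for genes of myeloid cells such as Cd68, C3 and Lyz2. What sets these retinas apart was not tested.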

How the results depend on the processing

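The numbers of genes higher, lower and called were 1054, 914 and 1968. They were 579, 491 and 1070 when the 19 retinas were fitted alone and 1784, 1734 and 3518 with sample quality weights. Without mice 60780 and 60637, a choice made after the data were seen, they were 1804, 1781 and 3585. In the ranges of mouse numbers that held both groups (6 against 7 retinas) they were 2085, 1428 and 3513. Those ranges hold neither mouse 60780 nor mouse 60637, so these higher counts are not separate from that choice. Females alone gave 0, 0 and 0. The replicate block with mouse as a fixed factor, which pairs the eyes of 1 animal, also gave 0, 0 and 0 so that no called gene kept its call. Leaving out 1 retina gave 680 to 1609 higher, 638 to 1376 lower and 1318 to 2985 called. The lowest of these were without mouse 60212 and the highest without mouse 60780. edgeR (1040 and 915), DESeq2 (1328 and 990), no filter (903 and 819), a 1 CPM filter (1130 and 1016), no sex term (1232 and 999), eye side (1038 and 950) and no block (1055 and 903) stayed within 1.5 times. Causes were not tested. Of 190 named genes 154 were called, 130 of them in every leave-one-out fit, and none reversed.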
